A study of Mus musculus with 12 samples.

Results

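Pericytes and vascular smooth muscle cells, together called mural cells, were followed through 10 genes that mark them: Pdgfrb, Cspg4, Notch3, Rgs5, Acta2, Myh11, Tagln, Des, Kcnj8 and Abcc9. The genes were chosen by name as known markers, though with earlier results of these data known. All 10 were found by Ensembl identifier among the 53707 genes of the count table. RNA came from retinal explants, whole retinas kept alive in culture medium, of wild-type C57BL/6J mice at 28 days of age. All explants had the cornea, iris, sclera and pigment epithelium removed and spent 48 hours in Neurobasal-A medium with supplements, with either 5 mM or 25 mM glucose as the only stated difference. Each glucose concentration had 3 biological replicates with 2 technical replicates each, 12 libraries in all, and the first and second technical replicates carried the labels batch 1 and batch 2. The retinas were cut off from the circulation, and neither the number of animals behind a biological replicate nor the step at which technical replicates were split is stated, so p-values describe the spread between these samples.

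Mural cells wrap the endothelial tube of retinal vessels, pericytes on capillaries and smooth muscle cells on arterioles and venules. Endothelial cells recruit them with PDGF-B, which is sensed by the receptor Pdgfrb, and Notch3 signalling keeps arterial smooth muscle cells differentiated. Contraction rests on smooth muscle actin and myosin, and a potassium channel that senses ATP, built from Kcnj8 and Abcc9, sets the membrane voltage of pericytes. The retina has an unusually dense pericyte coat, and loss of pericytes is an early sign of diabetic retinopathy in patients.

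Library totals lay between 17998905 and 36692484 estimated counts at 5 mM and between 14815285 and 23129541 at 25 mM. Libraries of the same biological replicate differed for these genes. The second library of 5 mM replicate 1 held the lowest 5 mM level of each of the 10 genes. The first library of 25 mM replicate 2 was also the smallest, with 14815285 counts, and held the lowest 25 mM level of 6 genes: Pdgfrb, Acta2, Tagln, Kcnj8, Abcc9 and Des. Counts of mural genes past the threshold are given with and without these libraries.

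The 10 genes lie on 7 chromosomes of the GRCm38 build and all encode proteins. Kcnj8 and Abcc9 are neighbours on the minus strand of chromosome 6, at chr6:142564837-142571614 and chr6:142587862-142702315. Rgs5 (chr1:169655501-169695813) and Des (chr1:75360329-75368579) are on the plus strand of chromosome 1, and Tagln (chr9:45929619-45936058, minus strand) and Cspg4 (chr9:56865033-56899870, plus strand) are on chromosome 9. On the minus strand of other chromosomes lie Acta2 at chr19:34241090-34255590, Myh11 at chr16:14194535-14291372 and Notch3 at chr17:32120820-32166852. Tagln, Abcc9, Notch3 and Des share exonic bases with genes on the opposite strand. The sources do not give the strand setting of the counting, and reads of these partners may therefore be included. The longest shared stretch is 645 bases, between Tagln and Gm48529.

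Promoter sequences for the region upstream of the start were taken from RefSeq (GRCm38.p6) for 7 of the genes, with 250 bases before each start. They were searched on both strands for the CArG box (CC, then 6 bases that are A or T, then GG), which binds serum response factor at contractile genes, and for TGGGAA, which fits the core that the Notch partner Rbpj binds. Pdgfrb, Myh11 and Tagln were not among the 7 and were not searched, so nothing is said of their promoters. No promoter of the 7 held a full CArG box, which 1.47% of all 32851 promoter windows held. After this was seen, the search was widened to boxes with 1 of the 6 inner bases replaced by C or G, held by 8.59% of all windows. Of the 7, Acta2 alone then matched, at 2 sites. The GENCODE model of Acta2 starts further upstream than the RefSeq one, so these sites fall in an annotated first exon, and only 30 bases around each are shown, with the matching box in capitals. The first lies at chr19:34255438-34255467 and the second at chr19:34255388-34255417, both read on the minus strand.
Acta2 site 1: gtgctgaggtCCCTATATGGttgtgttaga
Acta2 site 2: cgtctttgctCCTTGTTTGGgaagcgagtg
TGGGAA was found in 2 of the 7 promoters against 21.6% of all windows: in Acta2, where it overlaps the second site, and in Abcc9. The upstream stretches of the neighbouring channel genes are shown to set their base composition side by side, at chr6:142571615-142571864 for Kcnj8 and chr6:142702316-142702524 for Abcc9 (minus strand, TGGGAA in capitals). That of Rgs5, at chr1:169655251-169655500 on the plus strand, is shown because its level differed least between the glucose concentrations.
Kcnj8: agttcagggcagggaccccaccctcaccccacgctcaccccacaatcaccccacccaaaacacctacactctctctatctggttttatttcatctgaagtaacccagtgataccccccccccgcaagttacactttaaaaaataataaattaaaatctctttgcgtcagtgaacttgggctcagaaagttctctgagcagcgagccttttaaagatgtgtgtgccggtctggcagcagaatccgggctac
Abcc9: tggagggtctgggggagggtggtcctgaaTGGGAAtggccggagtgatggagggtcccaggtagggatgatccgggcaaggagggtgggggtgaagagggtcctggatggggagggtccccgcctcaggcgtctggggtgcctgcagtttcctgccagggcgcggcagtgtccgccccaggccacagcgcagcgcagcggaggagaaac
Rgs5: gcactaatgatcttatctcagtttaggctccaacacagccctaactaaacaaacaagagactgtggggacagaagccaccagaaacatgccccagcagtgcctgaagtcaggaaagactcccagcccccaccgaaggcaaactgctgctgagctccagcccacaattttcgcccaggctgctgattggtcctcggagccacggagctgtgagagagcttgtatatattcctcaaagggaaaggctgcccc

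The main question was how mural genes differed between retinas kept in 25 mM and in 5 mM glucose. Counts of both technical replicates were summed, scaled to CPM (counts scaled to one common library size, with TMM factors) and tested with the quasi-likelihood test of edgeR, with a false discovery rate (FDR) taken over all 21061 genes tested. Of the 10 genes, 9 had lower mean CPM at 25 mM, by 2.49- to 5.49-fold in the fit, and Rgs5 did not. Of all genes tested, 50.7% had a log2 fold change below 0. None of the 10 passed an FDR of 0.05, which 1.98% of all genes passed, and the lowest FDR among them was 0.0594, for Pdgfrb. At an unadjusted p under 0.05, 9 of the 10 were lower at 25 mM, as were 15.5% of all genes. Under DESeq2, 9 of the 10 passed an FDR of 0.05, as did 3489 of 21055 genes, and under limma-voom 0 did, beside 418 of 21061 genes. In edgeR, 6 of the 10 and 1731 of 20940 genes passed without the second library of 5 mM replicate 1, and 8 of the 10 and 5845 of 21945 genes passed without that replicate as a whole. Without the second library of 25 mM replicate 3, 8 of the 10 and 3020 of 21021 genes passed. Without the first library of 25 mM replicate 2, 0 of the 10 and 0 of 20898 genes passed. Of the 12 fits that left out 1 library, 10 called 0 of the 10 genes. Of the 6 that left out 1 biological replicate, 4 did so. The median log2 fold change was -1.63 over the 10 genes and -0.01 over all genes tested, and 9 of the 10 were below -1, as were 9.27% of all genes. In bulk tissue, fewer mural cells and less of these RNAs per cell cannot be told apart.

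**Figure D1:**
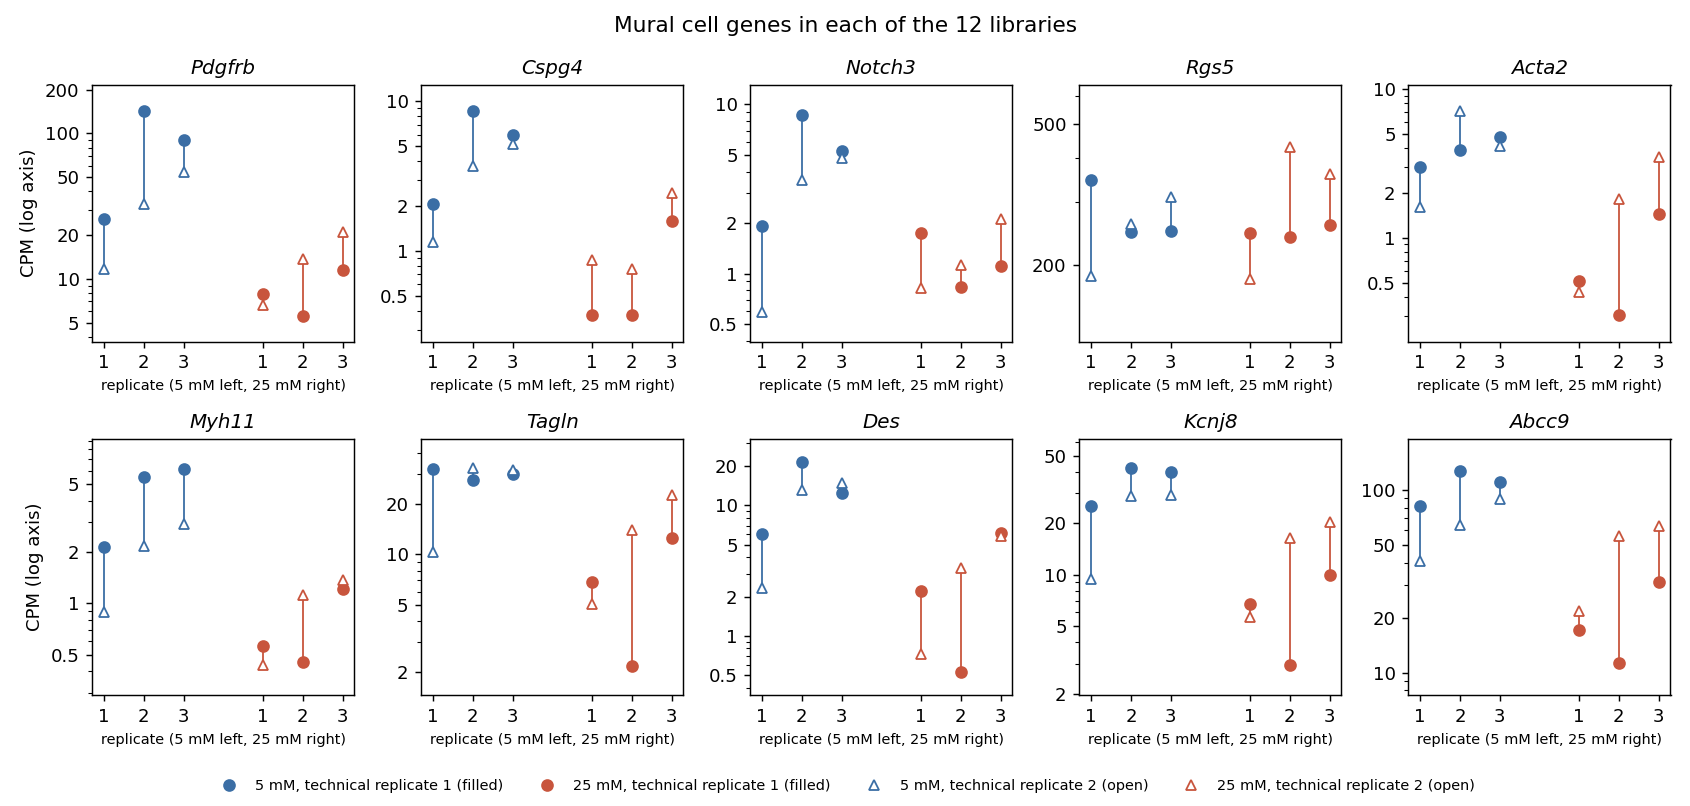
Level of each mural gene in every library, in CPM on a log axis, with 5 mM glucose replicates on the left and 25 mM replicates on the right of each panel; lines join technical replicates 1 (filled circles) and 2 (open triangles) of a biological replicate. The second library of 5 mM replicate 1 is the lowest 5 mM library in each panel, and the conditions overlap for Rgs5.

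Pdgfrb, the receptor for PDGF-B on the plus strand of chromosome 18 (chr18:61045150-61085061), had the lowest fold change of the 10 genes. Its biological replicates held 20.1, 95.9 and 72.4 CPM at 5 mM and 7.09, 10.4 and 16.8 CPM at 25 mM. Every 25 mM replicate lay below every 5 mM replicate, although 5 mM replicate 1 was much closer to the 25 mM values than to the other two. The means were 62.8 ± 38.8 CPM and 11.4 ± 4.91 CPM (SD, n = 3 each). The log2 fold change was -2.46 (SE 0.56, 95% interval -3.73 to -1.18, edgeR FDR = 0.0594). Leaving out 1 biological replicate at a time gave values between -2.88 (without 5 mM replicate 1, edgeR FDR = 0.00908) and -2.03 (without 5 mM replicate 2, edgeR FDR = 0.175). Without the first library of 5 mM replicate 2 alone it was -1.87 (edgeR FDR = 0.103).

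Cspg4, the NG2 proteoglycan on the pericyte surface, held 1.70, 6.49 and 5.595 CPM at 5 mM and 0.603, 0.602 and 2.03 CPM at 25 mM. Notch3, the mural Notch receptor, held 1.37, 6.49 and 5.08 CPM at 5 mM and 1.23, 0.985 and 1.65 CPM at 25 mM. For both genes 5 mM replicate 1 lay below 25 mM replicate 3, so the groups overlapped at that pair and nowhere else. The log2 fold changes were -2.08 (SE 0.64, edgeR FDR = 0.0919) for Cspg4 and -1.74 (SE 0.54, edgeR FDR = 0.0941) for Notch3. These are thinly counted genes, with between 5.31 and 215 estimated counts of Cspg4 and between 11.2 and 218 of Notch3 in a library. Without 5 mM replicate 1 the edgeR FDR was 0.0174 for Cspg4 and 0.0108 for Notch3, and without any other replicate it was between 0.0523 and 0.269 for Cspg4 and between 0.103 and 0.275 for Notch3. Cspg4 stood at -2.93 without 25 mM replicate 3.

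The contractile genes were also lower on average at 25 mM. Acta2, smooth muscle actin, held 2.46, 5.32 and 4.42 CPM at 5 mM and 0.440, 1.23 and 2.55 CPM at 25 mM, a log2 fold change of -1.52 (SE 0.58, edgeR FDR = 0.136). Des, the muscle intermediate filament desmin, held 4.57, 18.1 and 13.8 CPM at 5 mM and 1.44, 2.22 and 5.97 CPM at 25 mM, a log2 fold change of -1.92 (SE 0.64, edgeR FDR = 0.105). As with Cspg4 and Notch3, the groups overlapped at 5 mM replicate 1 and 25 mM replicate 3. Myh11, the smooth muscle myosin heavy chain, held 1.64, 4.10 and 4.49 CPM at 5 mM and 0.487, 0.876 and 1.33 CPM at 25 mM, a log2 fold change of -1.92 (SE 0.50, edgeR FDR = 0.0709). Tagln, the actin-binding protein transgelin, held 23.5, 30.01 and 31.2 CPM at 5 mM and 5.84, 9.33 and 17.998 CPM at 25 mM, a log2 fold change of -1.35 (SE 0.39, edgeR FDR = 0.0809). The groups did not overlap for these 2 genes. Tagln had the steadiest 5 mM level of the 9 lower genes, with a coefficient of variation of 14.7% over summed replicates, against 56.6% at 25 mM. This does not hold for single libraries, since those of 5 mM replicate 1 held 32.3 and 10.4 CPM. With 1 biological replicate left out at a time, the edgeR FDR lay between 0.0529 and 0.338 for Acta2, 0.0213 and 0.292 for Des, 0.0130 and 0.221 for Myh11, and 0.0345 and 0.252 for Tagln. Without 25 mM replicate 3, Acta2 stood at -2.29 and Des at -2.73.

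Both subunits of the mural potassium channel were lower at 25 mM and did not overlap between the groups. Kcnj8, which encodes the pore subunit Kir6.1, held 19.0, 36.5 and 34.8 CPM at 5 mM and 6.03, 11.1 and 15.7 CPM at 25 mM. Its log2 fold change was -1.46 (SE 0.39, edgeR FDR = 0.0732). Abcc9, which encodes the sulfonylurea receptor SUR2, held 65.6, 101 and 99.7 CPM at 5 mM and 19.0, 38.5 and 49.1 CPM at 25 mM. Its log2 fold change was -1.32 (SE 0.34, edgeR FDR = 0.0712). The ratio of Abcc9 to Kcnj8 CPM lay between 2.75 and 3.46 in the 5 mM replicates and between 3.13 and 3.45 in the 25 mM replicates, so the ranges of the ratio overlapped while the levels did not. With 1 biological replicate left out at a time, the edgeR FDR lay between 0.0165 and 0.223 for Kcnj8 and between 0.0203 and 0.212 for Abcc9. Over all 10 genes, 5 did not overlap and were lower at 25 mM (Pdgfrb, Myh11, Tagln, Kcnj8 and Abcc9), as were 15.8% of all genes tested.

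Rgs5, a regulator of G-protein signalling that is used as a pericyte marker, did not follow the others. Its replicates held 283, 255 and 283 CPM at 5 mM and 209, 351 and 316 CPM at 25 mM. At 25 mM, replicate 1 lay below and replicates 2 and 3 above every 5 mM replicate, and means were 273 ± 16.3 and 292 ± 73.6 CPM (SD, n = 3 each). The log2 fold change was 0.09 (SE 0.22, 95% interval -0.40 to 0.59, edgeR FDR = 0.792), an interval that lies above the fitted value of each of the other 9 genes. Relative to Pdgfrb, Rgs5 stood at 14.1-, 2.66- and 3.90-fold in the 5 mM replicates and at 29.5-, 33.6- and 18.8-fold in the 25 mM replicates.

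**Figure D2:**
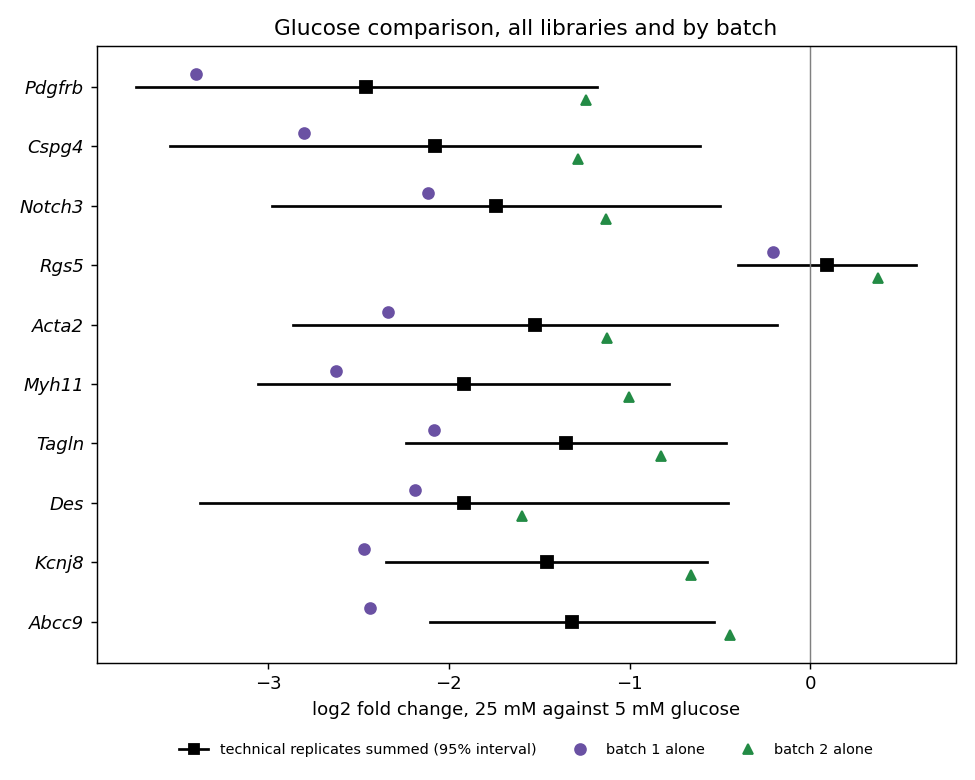
Log2 fold change of each mural gene between 25 mM and 5 mM glucose; squares and lines give the value and 95% interval with technical replicates summed, circles batch 1 alone and triangles batch 2 alone. Among the 9 genes other than Rgs5, each batch 1 value lies further from 0 than its batch 2 value, and all values are below 0.

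Levels can be compared between genes only per transcript length, so TPM values (counts divided by transcript length and scaled to a common total) were computed from the transcript table. At 5 mM Rgs5 stood highest at 123 ± 5.37 TPM (SD, n = 3), followed by Tagln at 36.8 ± 8.86 TPM. Abcc9 (22.5 ± 6.13 TPM), Kcnj8 (22.003 ± 8.42 TPM) and Pdgfrb (21.1 ± 13.2 TPM) came next by their means. The range of Des (10.9 ± 6.66 TPM) overlapped with those of all 3, but within every replicate Des lay below each of them. The order of Abcc9, Kcnj8 and Pdgfrb changed between replicates. The range of Tagln lay above that of Abcc9 but overlapped with those of Kcnj8 and Pdgfrb, although Tagln was above these genes within every replicate. Acta2 (5.00 ± 2.19 TPM) followed. Its range overlapped with those of Des and Pdgfrb, but it lay below both within every replicate. Cspg4 (1.598 ± 0.921 TPM), Notch3 (1.04 ± 0.664 TPM) and Myh11 (0.987 ± 0.487 TPM) stood lowest, overlapped with one another and lay below Acta2 in every replicate. At 25 mM the order of the means was the same, from Rgs5 at 140.0 ± 23.1 TPM and Tagln at 14.8 ± 8.70 TPM down to Myh11 at 0.277 ± 0.133 TPM. By range only Rgs5 was separated from its next neighbour there. Within every 25 mM replicate the order from Rgs5 down to Acta2 was also the same, with Cspg4, Notch3 and Myh11 below Acta2. The smooth muscle genes Acta2 and Myh11 were thus listed well below Rgs5 in these retinas in both conditions.

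Technical replicates were compared within each biological replicate. For 5 mM replicate 1, all 10 genes were lower in the second library, with a median log2 ratio of second to first of -1.20. For 25 mM replicate 2 the direction was opposite: all 10 were higher in the second library, with a median of 1.81. The steepest of these was Tagln, at 2.18 CPM in the first and 13.9 CPM in the second library. In 25 mM replicate 3, 9 of the 10 were higher in the second library (median 0.86), and in 5 mM replicates 2 and 3, 7 of the 10 were lower (medians -0.85 and -0.21). In 25 mM replicate 1, unlike the other 25 mM replicates, 8 of the 10 were lower in the second library (median -0.32). Over all genes the median log2 ratio of each pair lay between -0.05 and 0.01. Pdgfrb in 5 mM replicate 2 stood at 144 CPM in the first library and at 32.7 CPM in the second.

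**Figure D3:**
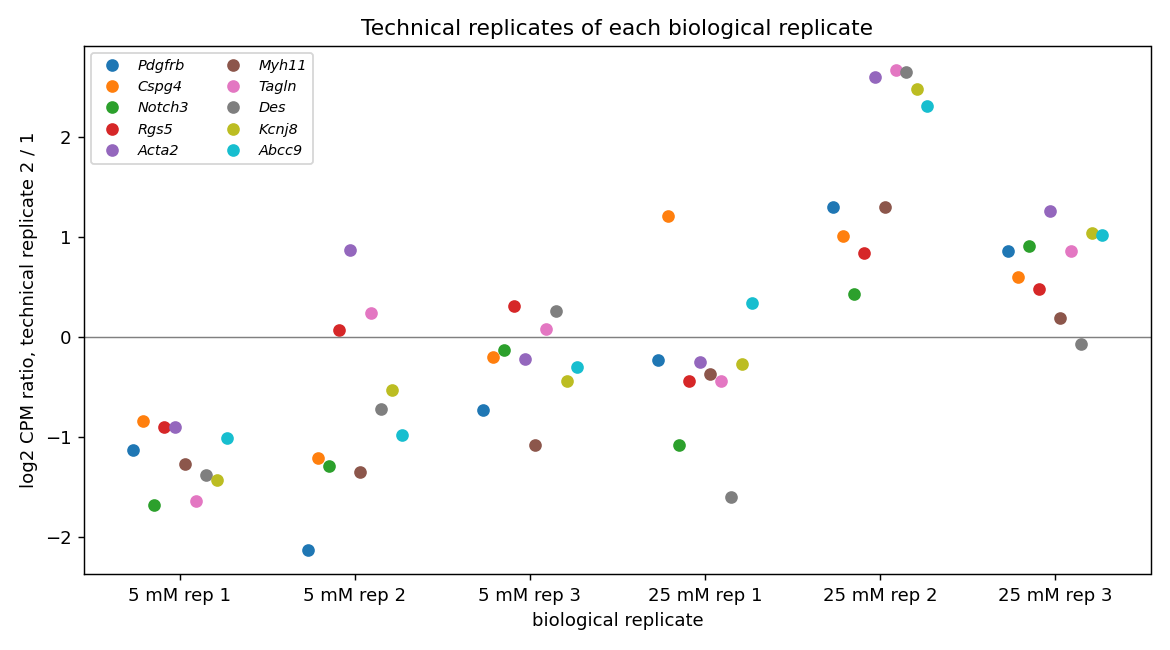
Log2 ratio of CPM in technical replicate 2 to technical replicate 1 for each mural gene, by biological replicate; each colour is a gene. All 10 genes lie below 0 in 5 mM replicate 1 and above 0 in 25 mM replicate 2.

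A common shift between first and second libraries was not detected: with biological replicate as a block, 0 of 18725 genes passed an FDR of 0.05 in edgeR and 269 had an unadjusted p under 0.05 (1.44%), none of them among the 10. The glucose comparison was also made within each batch. In batch 1 alone, 8 of the 10 genes passed an FDR of 0.05 in edgeR and were lower at 25 mM, against 10.1% of all genes (17.3% in either direction), with log2 fold changes from -2.08 for Tagln to -3.40 for Pdgfrb. Des missed the threshold (-2.19, FDR = 0.0808) and Rgs5 stood at -0.21 (FDR = 0.520). All 9 genes other than Rgs5 had non-overlapping libraries in batch 1 and were lower at 25 mM, as were 20.6% of all genes. In batch 2 alone no gene passed an FDR of 0.05 in edgeR, 0 of the 10 had an unadjusted p under 0.05 (6.64% of all genes did, lower at 25 mM), and 0 had non-overlapping libraries that were lower at 25 mM (7.91% of all genes). There the log2 fold changes of the 9 genes ran from -0.44 for Abcc9 to -1.59 for Des, and Rgs5 stood at 0.37.

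The difference of the glucose effect between batches was tested directly with an interaction term. Its value was positive for all 10 genes, from 0.47 for Rgs5 to 1.97 for Pdgfrb and Abcc9, with the 9 genes other than Rgs5 nearer to 0 in batch 2 and Rgs5 on the other side of 0. At an unadjusted p under 0.05 it was positive for 5 of the 10 (Pdgfrb, Myh11, Cspg4, Kcnj8 and Abcc9) and for 8.12% of all genes. None passed an FDR of 0.05, as was the case for all 18725 genes, of which 3056 had an unadjusted p under 0.05. The lowest FDR among the 10 was 0.188, for Abcc9. Abcc9, which had the lowest FDR, is given by library. Its libraries held 81.9, 127 and 110 CPM at 5 mM and 17.2, 11.3 and 31.4 CPM at 25 mM in batch 1, and 40.6, 64.6 and 89.2 CPM at 5 mM and 21.7, 56.1 and 63.8 CPM at 25 mM in batch 2. Its second libraries were lower at 5 mM and higher at 25 mM than the first, and the groups overlapped in batch 2. In 25 mM replicate 1 it shared that direction with Cspg4 but not with the other 8 genes.

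Other genes of mural cells, from a list written from general knowledge, were mixed. Of 25 further pericyte and mural markers, all tested, 0 passed an FDR of 0.05 as lower in edgeR (0.513% of all genes did) and 1 as higher (1.47% of all genes did). That gene was Vtn, vitronectin, which photoreceptors also make: it rose from 33.0 ± 8.86 to 82.5 ± 19.0 CPM (SD, n = 3 each; log2 fold change 1.32, SE 0.26, edgeR FDR = 0.0475). At an unadjusted p under 0.05, 11 of the 25 were lower and the median log2 fold change was -0.71. Mcam, an adhesion molecule of mural and endothelial cells, had the highest CPM of the list at 5 mM (278) but not at 25 mM (79.5), and stood at -1.81 (edgeR FDR = 0.0839). The guanylate cyclase subunits Gucy1a1 and Gucy1b1, through which nitric oxide relaxes mural cells, stood at -0.42 and -0.29, and the sphingosine phosphate receptor S1pr3 at -0.50.

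Of 16 further smooth muscle contractile genes, 14 were tested, of which 0 passed as lower and 1 as higher in edgeR. Synpo2, an actin-bundling protein of muscle, rose from 10.3 ± 1.37 to 23.6 ± 4.51 CPM (log2 fold change 1.19, SE 0.23, edgeR FDR = 0.0456). The median was -0.97, with 8 of the 14 lower at an unadjusted p under 0.05. The 4 most abundant were cytoskeletal genes used by many cell types: Flna (log2 fold change -0.94), Cald1 (-1.12), Tpm1 (-0.41) and Vcl (-0.97), each with an edgeR FDR between 0.0594 and 0.219. Of 6 factors that act with serum response factor, 0 passed in edgeR and 1, Mrtfb, had an unadjusted p under 0.05 (log2 fold change -1.66, edgeR FDR = 0.0563). Srf itself stood at -0.39, Klf4 at 0.05 and Elk1 at -0.10.

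Among the upstream ligands and partners of the 2 receptors, 0 of 5 PDGF genes and 0 of 13 Notch genes passed an FDR of 0.05 in edgeR, and 4 and 8 of them were lower at an unadjusted p under 0.05. Pdgfb, the endothelial ligand of Pdgfrb, averaged 15.2 CPM under 5 mM glucose against 2.95 CPM under 25 mM, a log2 fold change of -2.36 (edgeR FDR = 0.0707) beside -2.46 for its receptor. Pdgfra, the other PDGF receptor, stood at -0.72 and Pdgfa at -1.54. In the Notch list the median was -0.64. The receptors Notch1 and Notch2 stood at -0.54 and -0.99, the ligand Jag1 at -0.34 and the nuclear partner Rbpj at -0.47. Hey2, a Notch target named here after its value was seen because it alone was higher at an unadjusted p under 0.05, stood at 1.21 (edgeR FDR = 0.0646). The other listed Notch targets were lower, with an edgeR FDR between 0.0654 and 0.153. Heyl stood at -2.25, Hey1 at -0.61, Hes1 at -0.64 and Nrarp at -0.68. The channel partners of beta cells and neurons, Kcnj11 and Abcc8, were low and stood at -0.41 and -0.17 (edgeR FDR = 0.472 and 0.760).

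**Figure D4:**
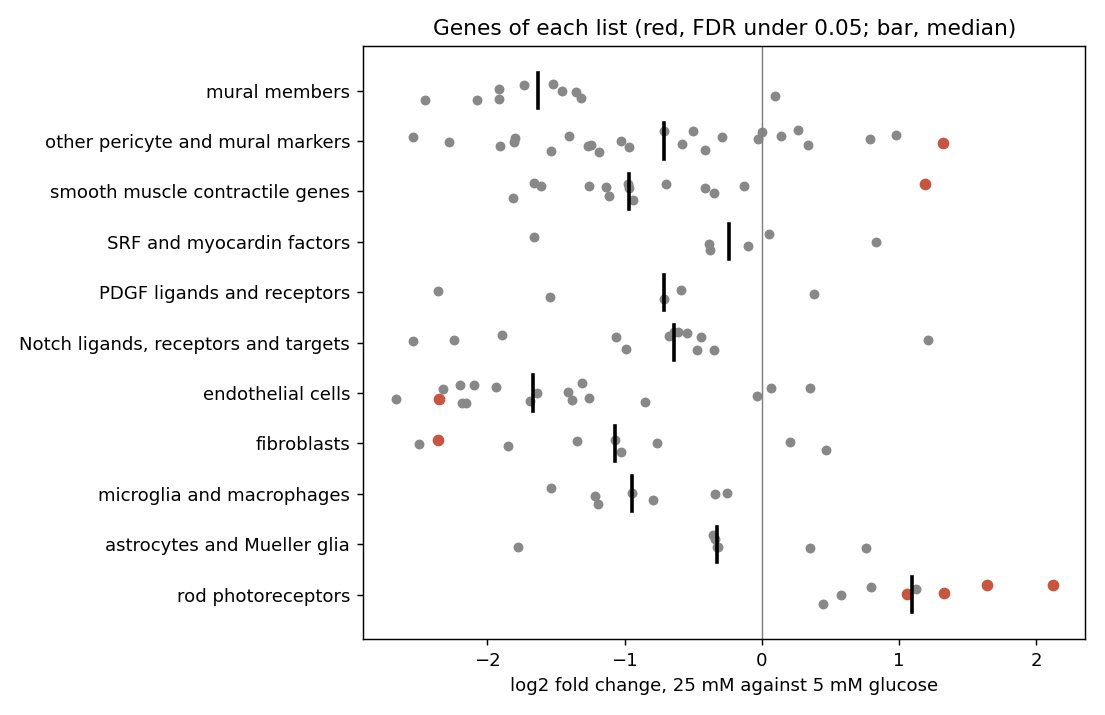
Log2 fold change between 25 mM and 5 mM glucose for each tested gene of the mural genes and of 10 other lists; red points passed an FDR of 0.05 in edgeR and black bars are medians. The medians of mural members (-1.63) and endothelial genes (-1.66) lie furthest below 0, and that of rod genes lies above it (1.09).

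Markers of other cell types moved alongside. Of 18 endothelial genes, 1 passed an FDR of 0.05 in edgeR as lower, Plvap (9.90 ± 5.07 to 1.93 ± 0.818 CPM, log2 fold change -2.35, FDR = 0.0494), 15 were lower at an unadjusted p under 0.05, and the median was -1.66. By batch their medians were -2.73 and -0.74, beside -2.39 and -1.07 for the 10 mural genes. Pecam1, the endothelial adhesion molecule, stood at -1.94 and Cdh5, the junction cadherin, at -2.19, while Kdr, the VEGF receptor, stood at -0.03 and Podxl at 0.35. The summed level of the endothelial list ranged from 832 to 3438 CPM in the 5 mM libraries and from 627 to 1646 CPM in the 25 mM libraries. Thus the lower mural genes came with lower endothelial genes in the same libraries, and the part of vessel content in the mural values was not tested.

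Fibroblast genes, 9 of 10 tested, had a median of -1.07, and Col3a1, a fibrillar collagen, fell from 19.6 ± 5.35 to 3.81 ± 1.44 CPM (log2 fold change -2.36, edgeR FDR = 0.0326). Their sum was 103 to 266 CPM at 5 mM and 16.5 to 173 CPM at 25 mM. Microglial and macrophage genes had a median of -0.95, with 0 of 7 past an FDR of 0.05 and 5 lower at an unadjusted p under 0.05 in edgeR. Astrocyte and Mueller glia genes had a median of -0.33, with 0 of 7 past the FDR, and 1 lower and 1 higher at an unadjusted p under 0.05. All 8 rod genes were higher at 25 mM (median 1.09) and 4 of them rose past the FDR (Cnga1, Nrl, Pde6a and Pde6b), with summed levels of 2652 to 5347 CPM at 5 mM and 4080 to 10980 CPM at 25 mM.

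Striated muscle also makes Des, and skeletal muscle genes were at or near 0. Of 12 skeletal muscle genes 4 could be tested, and the whole list summed to between 1.35 and 3.15 CPM in any 5 mM library and between 1.61 and 3.10 CPM in any 25 mM library, with 1 gene at 0 in all libraries. The cardiac list summed to between 3.03 and 8.62 CPM and between 7.63 and 11.97 CPM, most of it Tnnt2, which rose from 3.40 to 8.47 CPM (log2 fold change 1.32, edgeR FDR = 0.0449). The pigment epithelium list summed to between 5.14 and 8.20 CPM and between 2.95 and 6.36 CPM. The oligodendrocyte list, for cells that the retina lacks, summed to between 25.3 and 38.4 CPM and between 37.0 and 63.1 CPM. The part of these cell types in the mural values was not tested.

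**Figure D5:**
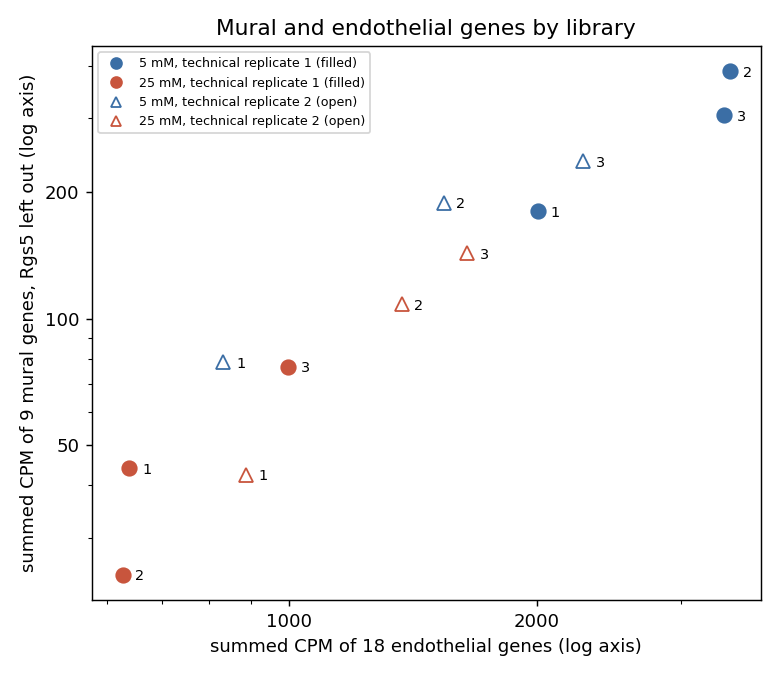
Summed CPM of the 9 mural genes other than Rgs5 against summed CPM of the 18 endothelial genes in each library, both on log axes; numbers give the biological replicate, filled circles technical replicate 1 and open triangles technical replicate 2. The sums rise together from 24.5 against 627 CPM to 389 against 3438 CPM.

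The ratio of mural to endothelial RNA was taken with and without Rgs5, the most abundant of the 10 by CPM. For all 10 genes the log2 ratio of the mural sum to the endothelial sum lay between -2.61 and -1.66 in the 6 libraries at 5 mM. In the 6 libraries at 25 mM it lay between -1.98 and -1.14. The medians were -1.99 and -1.46, and the ranges overlapped. Rgs5 made up most of the 10-gene sum in every 25 mM library, but not in every 5 mM library. The other 9 genes held 24.5 of 264 CPM in the first library of 25 mM replicate 2. In the first library of 5 mM replicate 2 they held 389 of 637 CPM. No direction for mural RNA is therefore read from the 10-gene ratio. Without Rgs5 the 5 mM libraries ranged from -3.48 to -3.03 on that scale, against -4.68 to -3.52 for the 25 mM libraries. Since Rgs5 was set aside for its values, the direction of the 9-gene ratio is fixed in part by that choice, and nothing is read from it. For single genes the picture was less even, since the log2 ratio of Pdgfrb to Pecam1 was -3.74, -2.37 and -2.91 in the 5 mM replicates and -2.47, -3.52 and -3.44 in the 25 mM replicates.

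The 9 genes other than Rgs5 also varied together from library to library. Their log2 CPM over the 12 libraries gave Pearson correlations between 0.72 (Acta2 with Notch3) and 0.98 (Pdgfrb with Myh11), with a median of 0.91 over 36 pairs. Rgs5 gave between 0.13 (with Cspg4) and 0.45 (with Tagln), with a median of 0.36 over 9 pairs. These values describe 12 libraries that share 6 biological replicates and 1 glucose contrast, and carry no test. Outside all lists, the 10 genes whose log2 CPM correlated most with the mean standardised profile of the 10 mural genes were Ostf1, Ralb, Cmtm3, Csrp1, Kctd10, Tmem252, Efna1, Adgre5, Slc15a3 and Flt4. Their correlations were 0.990 to 0.997 over 12 libraries, against a median of -0.04 over 18725 genes. The set includes Flt4, a VEGF receptor of lymphatic and some blood endothelium, and Efna1, an ephrin ligand. Among the listed genes the endothelial receptor Tie1 (0.996) and the junction gene Esam (0.990) ranked in places 3 and 11 of all genes. Each mural gene is itself part of that profile. Kcnj8, at 0.990, was the member closest to the shared profile, in place 13, whereas Rgs5, at 0.435, was in place 6251.

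Summed over all libraries, most of the counts of each gene came from 1 transcript model, though only narrowly for Cspg4. The leading model held 99.96% of the counts of Rgs5, 99.8% for Notch3, 93.6% for Pdgfrb, 92.2% for Kcnj8 and 85.5% for Abcc9. It held 89.3% for Tagln, 86.0% for Acta2, 83.1% for Des, 73.3% for Myh11 and 52.6% for Cspg4. That of Cspg4 held 6.82% in 5 mM replicate 1 and 33.3% in 25 mM replicate 3. Retained-intron models, which keep an intron, held at least 10% of the counts of 3 genes: Cspg4 (2 models with 17.4% and 22.4%), Tagln (10.4%) and Des (12.4%). Total RNA libraries also sample unspliced RNA, and the estimates for Cspg4 rest on 807 counts in all libraries. The share of the retained-intron model of Tagln was 18.6%, 3.86% and 5.54% in the 5 mM replicates and 21.1%, 11.9% and 15.0% in the 25 mM replicates, overlapping between the groups. For Myh11, with 575 counts in all, the estimates switched between 2 protein-coding models from replicate to replicate. The second of them took 98.1% of the counts in 5 mM replicate 1 and next to none in the other 5 mM replicates, so its isoforms could not be compared at this depth. The second models of Acta2 and Abcc9 held 13.97% and 10.3% of their counts.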

How the data were processed

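RNA of 12 libraries was analysed, with 3 biological replicates per glucose concentration and 2 technical replicates of each. A stranded kit for small amounts of total RNA was used, and reads were paired. The authors deposited estimated counts, also called expected counts, per gene and per transcript, with technical replicates kept apart and without normalization between libraries. The build is GRCm38 per the labels. The counting tool and annotation are not given in the sources used here. The planned test spoke of gene counts, and the estimated values were therefore summed over technical replicates and then rounded. Of the columns with values, 0 were left unused. Symbols, positions and transcript lengths came from GENCODE M21, which named 90.7% of gene identifiers and matched 92.0% of transcripts; promoters came from RefSeq.

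Counts were filtered with filterByExpr, normalized by TMM and tested with the quasi-likelihood test of edgeR 4.0.16 as in its version 3, under R 4.3.3, with Benjamini-Hochberg adjustment over all genes tested. The technical replicate term and its interaction with glucose used all 12 libraries with biological replicate as a block. Log2 CPM used a prior count of 2, and TPM were computed from transcript counts and lengths. DESeq2 1.42.0, limma 3.58.1, other scalings, other filters, single batches, a replicate block and left-out replicates or libraries served as alternatives. The scripts were tested on simulated data. The totals limit counting error only, since amplified reads carried no molecular identifiers and can be copies of 1 molecule.

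The members, lists and tests were chosen with earlier results of these data known. Named were all members, genes of other lists past an FDR of 0.05, up to 4 further genes per list with the highest mean level, the 10 genes closest to the members in profile, and transcripts with at least 10% of a member's counts. Hey2 and the other listed Notch targets were named in addition, after their values were seen. Where the rule would have shown promoters with a full CArG box, there were 0, and those shown were chosen afterwards. Results for some genes of the other lists are not reported here.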

Additional observations from a re-analysis of the deposited data

Results flagged for a closer look

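Among the 20 sets of 6 libraries (10 genes in 2 conditions), 1 held a library that stood apart by Dixon's test at the 95% level, and chance alone marks about 1 in 20 such sets. This was Tagln at 10.4 CPM in 5 mM replicate 1, second library, while the other 5 mM libraries held between 27.7 and 32.6 CPM. The gap to the next library took 0.777 of the whole range. The same library held the lowest 5 mM level of each of the 10 genes.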

How the results depend on the processing

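The 9 mural genes other than Rgs5 kept their direction in 288 of 288 values over 32 alternatives, and 60 of these passed an FDR of 0.05. The 9 were set apart after their direction was seen, and the alternatives reuse the same libraries, so this tally is no independent support. Rgs5 passed in 0 of 32. Beside 417 genes and 0 of the 10 mural genes in the reported edgeR comparison, DESeq2 called 3489 genes and 9 mural genes, no filter on low counts 1979 and 8, batch 1 alone 3279 and 8, batch 2 alone 0 and 0, and 12 libraries as separate samples 2918 and 7. The replicate block gave 990 genes and 5 mural genes. For a sign of pairing, the mean of each condition was first subtracted from the log2 CPM of each gene. These deviations correlated at -0.01, -0.45 and 0.28 between same-numbered replicates of the conditions. By this measure replicate 3 of 5 mM alone correlated best with its own number. The labels do not say whether the numbers pair the replicates, and so few correlations cannot settle it. Leaving out 1 biological replicate gave 0 to 5845 genes and 0 to 8 mural genes. In 4 of these 6 fits 0 mural genes and 0 of all genes passed. Without 5 mM replicate 1 these were 5845 and 8, and without 25 mM replicate 3 they were 494 and 1 (Tagln). Leaving out single libraries gave 0 to 3020 genes and 0 to 8 mural genes, with 0 mural genes in 10 of 12 fits. Mural genes were called without the second library of 5 mM replicate 1 (6, beside 1731 genes) or of 25 mM replicate 3 (8, beside 3020 genes). In the comparison of technical replicates and in its interaction with glucose, no filter on low counts gave 1 and 127 genes against 0. The cause of these differences was not tested. Rgs5 changed sign in batch 1 alone (-0.21) and when replicates or libraries were left out, ranging from -0.11 to 0.29, with -0.05 without 25 mM replicate 2, -0.03 without the second library of 5 mM replicate 1 and -0.01 without that of 25 mM replicate 3. Genes of other lists that passed in the reported comparison kept their direction throughout but passed in fewer alternatives, Vtn in 16, Synpo2 in 14, Plvap in 12, Col3a1 in 22 and Tnnt2 in 16 of 32. Depth limits Acta2, Myh11, Cspg4, Notch3 and Des, of which the smallest library held 4.10 to 11.2 counts each. The alternatives chosen after seeing the data, a newer edgeR method and limma-voom on 12 libraries, each called 0 mural genes.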
